A study of Mus musculus with 2 samples.

Results

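The Sprouty genes Spry1, Spry2 and Spry4, the Sprouty-related genes Spred1 and Spred2, and the dual-specificity phosphatase genes Dusp1, Dusp4, Dusp5, Dusp6 and Dusp10 encode inhibitors of mitogen-activated protein kinase (MAPK) signalling. These 10 genes were chosen by name from 18193 genes on the array, with earlier results of these data known. All 10 were measured, as were 10267 of the 18193 genes. They were represented by 26 of 45101 probe sets. RNA came from urogenital sinus mesenchyme (UGM) cells, the stromal cells around the fetal epithelium that forms the prostate, of male C57BL/6 mice at day 16. The T+E2 cells received testosterone (12 nM) and estradiol-17 beta (120 pM) for 72 h in RPMI with 5% charcoal-stripped serum, which is low in steroids, and Plasmocin (5 µg/ml). The untreated cells spent the same 72 h in that medium without the hormones. There was 1 Affymetrix array per condition, so no difference has a replicate check and no test was run. The labels do not say whether the cells came from several animals. They disagree on density before treatment, with untreated cells described as confluent and T+E2 cells as nearly so in one field, and 80% confluence for both in another. The titles carry 24 h, against 72 h in all other fields. Hormone and any difference in density cannot be told apart.

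Growth factors such as FGFs bind receptor tyrosine kinases and signal through Ras, Raf and MEK to the kinase ERK, which enters the nucleus and changes transcription. Among the genes that ERK induces are inhibitors of the same pathway. Sprouty and Spred proteins act at the membrane between receptor and Raf, and dual-specificity phosphatases remove phosphate from the threonine and tyrosine of ERK, JNK or p38 kinases. Transcripts of such genes are widely read as a trace of recent MAPK signalling, although other inputs, including steroid receptors, cAMP and stress, also induce some of them. In the urogenital sinus, FGFs of the mesenchyme act on the epithelial buds. Neither kinase activity nor protein was measured here.

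All 10 genes were higher in T+E2 cells than in untreated cells, although Spred1 stood at -0.03 (log2) once a trend with genomic span (gene length) was taken out. The values are GCRMA intensities, and a gene was represented by its probe set with the highest mean log2 over both arrays. A gene was measured if at least 1 array reached a log2 of 5 (intensity 32), a floor that keeps apart signal and background. Dusp1, Spry4, Dusp5 and Spred2 reached 2-fold on the higher side, 6 genes were higher by less than 2-fold, and 0 reached 2-fold on the lower side. Of 10267 measured genes, 4.96% reached 2-fold on the higher side, 4.01% did so on the lower side, and 55.8% had a difference above 0. After centring on the median of all measured genes, those shares were 3.97% higher and 5.06% lower, and with the trend removed 2.83% higher and 4.39% lower. The median log2 difference (T+E2 minus untreated) of the 10 genes was 0.92, against 0.07 over all measured genes. At 1.5-fold, 7 of the 10 genes were higher and 0 lower, where 17.1% of measured genes were higher and 14.1% lower. The differences ranged from 0.24 for Spred1 to 2.11 for Dusp1. Over all measured genes the interquartile range was -0.32 to 0.45, which takes in Spred1 and Spry1. The 18 hybridization spikes, RNAs added to both samples, lay between -0.25 and 0.09, but they do not carry differences between the cultures. The 8 measured housekeeping genes ranged from -0.80 (Hprt) to 0.82 (Polr2a), with a median of 0.07. That range takes in Spred1, Spry1, Spry2 and Dusp4. In bulk RNA, fewer cells of a type and less RNA per cell cannot be told apart.

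**Figure D1:**
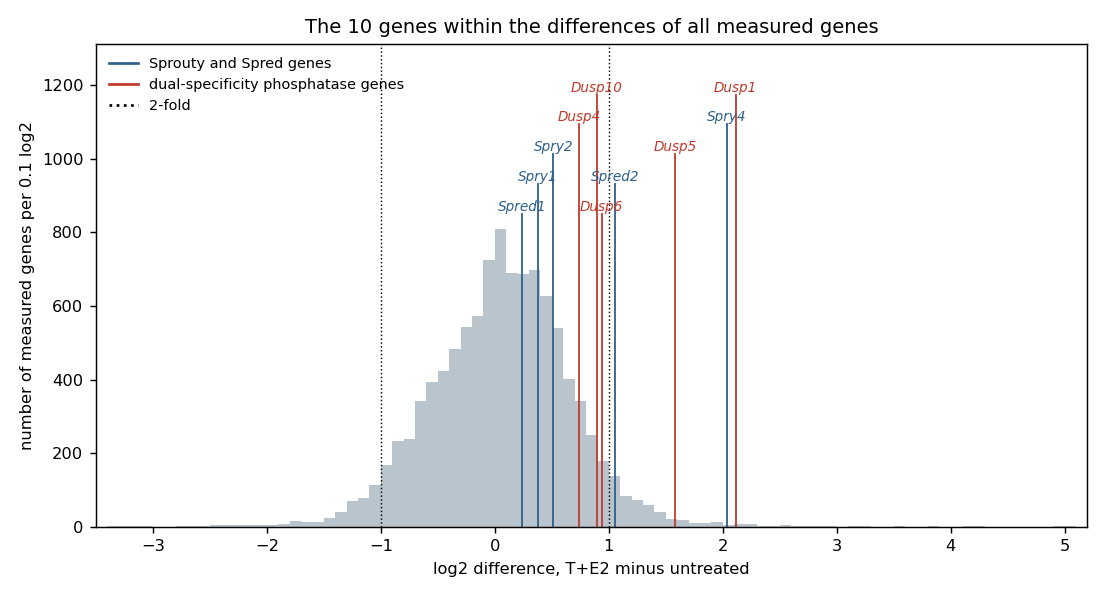
Histogram of the log2 difference (T+E2 minus untreated, horizontal axis) of 10267 measured genes, with the number of genes per bin on the vertical axis. Lines mark the 10 genes, Sprouty and Spred genes in blue and dual-specificity phosphatase genes in red, and dotted lines mark 2-fold; all 10 lie right of 0, from 0.24 (Spred1, at -0.03 with the genomic span trend removed) to 2.11 (Dusp1), and Spry4 is a lower bound.

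Of the nuclear phosphatases that are transcribed early after a stimulus, Dusp1 and Dusp5 were past 2-fold and Dusp4 was not. Dusp1, whose product (also called MKP-1) acts on p38, JNK and ERK and which glucocorticoids induce in many cells, had an intensity of 5961 in T+E2 cells, against 1379 in untreated cells. This was a 4.32-fold difference (2.11 on the log2 scale), which ranked 38 among 10267 measured genes. Dusp5, which encodes a nuclear phosphatase selective for ERK, stood at 1202 in T+E2 cells, against 402 in untreated cells (2.99-fold, rank 97). Both genes were far above the floor on both arrays, so that neither value rests on a background reading. Dusp4, whose nuclear product acts on ERK and JNK, stood at 339 in T+E2 cells, against 203 in untreated cells (1.67-fold). Each of these 3 genes had 1 probe set, so no second probe set bears on its value.

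The remaining phosphatases lay just under 2-fold. Dusp6 encodes the cytoplasmic, ERK-selective phosphatase MKP-3 and is a classical transcript of FGF-receiving tissue in embryos. Its intensity was 4893 in T+E2 cells and 2556 in untreated cells (1.91-fold). Dusp10, whose product acts on JNK and p38 rather than ERK, had 3501 in T+E2 cells and 1883 in untreated cells (1.86-fold). Its second probe set read 139 in T+E2 cells and 100.3 in untreated cells, a 1.39-fold difference on the same side. The 5 phosphatase genes together had a median log2 difference of 0.94, from 0.74 for Dusp4 to 2.11 for Dusp1.

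The sequences upstream of the 4 genes with the largest differences for which a promoter was given are shown because the genes were higher together while only some of their promoters hold recognition letters of stimulus-responsive factors. They are the 250 bases before the transcription start, from RefSeq on build GRCm38.p6, 5′ to 3′ on the gene's strand. Capitals mark the cAMP response element half-site TGACG on either strand and, in Dusp5, the CArG box of serum response factor.
Dusp1 (chr17:26508473-26508722, minus strand): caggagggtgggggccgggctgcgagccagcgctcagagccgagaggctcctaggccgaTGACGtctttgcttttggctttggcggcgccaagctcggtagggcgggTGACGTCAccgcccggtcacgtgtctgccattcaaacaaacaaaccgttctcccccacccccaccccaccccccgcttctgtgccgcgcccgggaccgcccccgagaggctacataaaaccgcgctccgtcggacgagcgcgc
Dusp5 (chr19:53528895-53529144, plus strand): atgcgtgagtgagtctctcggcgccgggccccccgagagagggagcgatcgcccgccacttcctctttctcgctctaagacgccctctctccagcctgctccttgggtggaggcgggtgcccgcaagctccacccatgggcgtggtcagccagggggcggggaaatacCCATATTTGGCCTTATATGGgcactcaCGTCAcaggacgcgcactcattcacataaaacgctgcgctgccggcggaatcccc
Spred2 (chr11:19924192-19924441, plus strand): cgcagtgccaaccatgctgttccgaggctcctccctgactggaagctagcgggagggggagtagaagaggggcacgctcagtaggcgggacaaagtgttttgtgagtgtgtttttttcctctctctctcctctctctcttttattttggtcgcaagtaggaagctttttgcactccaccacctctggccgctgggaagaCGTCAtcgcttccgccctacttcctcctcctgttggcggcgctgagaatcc
Dusp6 (chr10:99262981-99263230, plus strand): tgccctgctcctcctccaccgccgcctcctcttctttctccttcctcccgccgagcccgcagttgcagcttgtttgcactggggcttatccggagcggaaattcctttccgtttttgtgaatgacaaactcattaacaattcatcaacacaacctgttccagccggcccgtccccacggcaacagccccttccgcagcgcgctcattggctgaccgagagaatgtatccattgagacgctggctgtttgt

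Dusp1 held 1 full cAMP response element (TGACGTCA), found in 1.55% of 32851 promoter windows of the same length, and a separate half-site upstream of it. The full element itself reads as a half-site on each strand, so the count of half-sites in Dusp1 was 3. Dusp5 held 2 adjacent CArG boxes, from 82 to 73 and from 72 to 63 bases before the start, and 1 half-site. CArG boxes were present in 1.47% of all windows. Spred2 held 1 half-site and Dusp6 none, where 17.8% of all windows held one. Of the 8 promoters given for the 10 genes, 3 held a half-site, 1 the full element and 1 a CArG box. Those of Spry1, Spry2, Spred1 and Dusp10, which are not shown, held none of these. The AP-1 site TGANTCA, the ETS site CCGGAAG, the steroid receptor half-site TGTTCT, the androgen and glucocorticoid receptor element and the estrogen receptor element, both inverted repeats with a gap of unspecified bases, were searched on both strands in the same windows, and none of the 8 promoters given for the 10 genes held any of them. The steroid receptor half-site was in 16.1% of all windows, the ETS site in 6.91% and the AP-1 site in 6.75%. The full androgen and glucocorticoid receptor element was in only 3 of 32851 windows and the estrogen receptor element in 21. Elements this rare would be absent from almost any 8 promoters, so their absence says nothing about these genes. The commoner motifs are also missing from most windows, and their absence from only 8 promoters says nothing about these genes either. TGTTCT is the right arm of the full androgen and glucocorticoid receptor element. Variant forms of the ETS site and of the other sites were not searched. A match is only a run of letters in this window.

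Among the Sprouty genes the difference was large for Spry4 alone. Sprouty proteins are membrane-anchored adaptors, named after a Drosophila gene that limits FGF-driven branching of the airways. Spry4 had an intensity of 131 in T+E2 cells and 28.9 in untreated cells, where it was under the floor. Against the floor it was at least 4.10-fold higher (2.04 on the log2 scale), a bound that was 1.04 with the floor at a log2 of 6. With the floor at 4, which Spry4 passed on both arrays, the difference was 2.19. A second probe set ran the same way, at 86.2 in T+E2 cells and 19.8 in untreated cells. The other two Spry4 probe sets stood near 4.4 on both arrays, which is background, and give no difference. Spry4 was therefore low in untreated cells, and its fold rests on 2 probe sets of modest signal.

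Spry2, whose product also binds the ubiquitin ligase Cbl, stood at 13811 in T+E2 cells and 9670 in untreated cells (1.43-fold). Its second probe set was at 231 in T+E2 cells and 171 in untreated cells (1.35-fold). The Spry2 readings thus differed by similar factors. Spry1, which in mice restrains GDNF and FGF signals during budding of the ureter, was at 67.2 in T+E2 cells and 51.8 in untreated cells (1.30-fold). This single Spry1 probe set was close to the floor on both arrays. Of all measured genes, 20.8% had a difference at least as high as that of Spry2 and 29.2% one at least as high as that of Spry1, so that both lay within the bulk of genes.

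The Spred genes differed from each other. Spred proteins bring the Ras inactivator neurofibromin to the membrane. Spred2 had 1277 in T+E2 cells and 615 in untreated cells (2.08-fold), with a second probe set at 388 in T+E2 cells and 173 in untreated cells (2.24-fold). Its other 3 probe sets were under the floor on both arrays, and 1 of them ran the other way, at 6.24 in T+E2 cells and 22.3 in untreated cells. Spred1 was at 3260 in T+E2 cells and 2758 in untreated cells, a 1.18-fold difference and the smallest of the 10 genes. All 6 measured Spred1 probe sets lay on the higher side, by 0.24 to 0.64 on the log2 scale, and 2 more were at background. Of measured genes, 38.5% differed at least as far upward as Spred1 and 4.21% at least as far as Spred2.

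**Figure D2:**
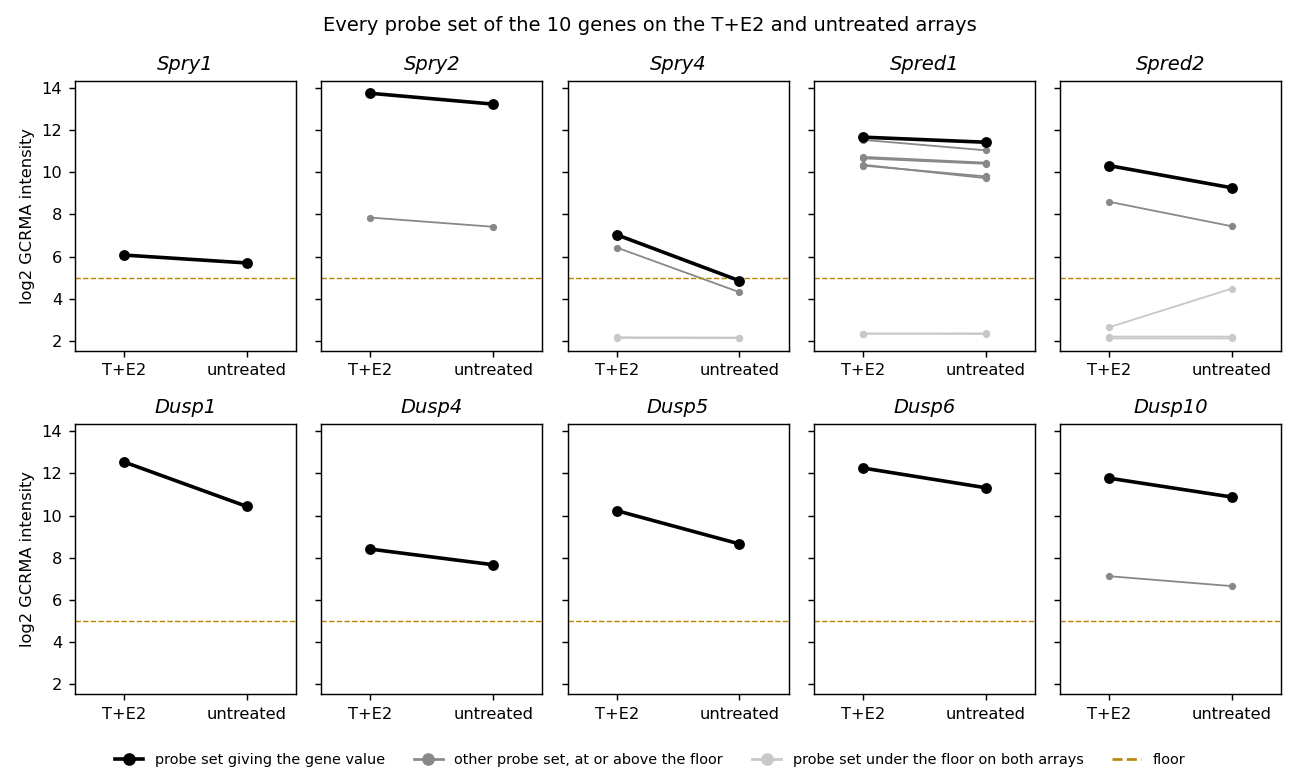
Log2 GCRMA intensity (vertical axis) of all 26 probe sets of the 10 genes on the T+E2 array (left) and the untreated array (right), a panel per gene. Black lines give the probe set used for the gene, dark grey lines other measured probe sets, pale lines probe sets under the floor on both arrays, and the dashed line the floor at 5; the 19 measured probe sets all stand higher on the T+E2 array.

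All 19 measured probe sets of the 10 genes were higher in T+E2 cells, and 7 were under the floor on both arrays. Over the 17674 measured probe sets that name 1 gene, 56.3% were higher. Probe sets of a gene read the same RNA and are not replicates of the culture.

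The difference between the arrays also grew with genomic span, the length of a gene from first to last base. With that trend removed, Spred2, the longest of the 10 genes, stood at 0.64 (log2), under 2-fold, and Spred1 at -0.03, on the other side of 0. Dusp1 (2.31), Spry4 (2.07) and Dusp5 (1.66), which are shorter, remained above 2-fold, and Dusp6 (1.08) came above it. The source of the trend was not tested. Spred2 also depended on the centring of the arrays, with a log2 difference of 0.98 after subtracting the median over measured genes.

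Of the closest relatives of the 10 genes, those that could be measured were also higher in T+E2 cells. Of the 7 relatives, Dusp16, Dusp8 and Dusp7 were measured, 2 of them past 2-fold on the higher side, with a median log2 difference of 1.04. Of all measured genes, 4.96% reached 2-fold on that side. Dusp16, whose product acts on JNK and p38, had 1703 in T+E2 cells and 795 in untreated cells (2.14-fold). Dusp8, a phosphatase of the same preference, had 177 in T+E2 cells and 85.8 in untreated cells (2.06-fold), with a second measured probe set at only 0.25 on the log2 scale. After centring on all measured genes 1 of the relatives was past 2-fold, as with the median over probe sets, and averaging every probe set of a gene left 0 past it, at a median of 0.42. Dusp7, a cytoplasmic ERK phosphatase close to Dusp6, had 774 in T+E2 cells and 527 in untreated cells (1.47-fold). With the span trend removed Dusp16 stood at 0.70, under 2-fold. The nuclear phosphatase gene Dusp2, the ERK phosphatase gene Dusp9, Spry3 and Spred3 were under the floor on both arrays.

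A list of 12 other attenuators of receptor or Ras signalling held a similar share of higher genes. Of all measured genes, 4.96% reached 2-fold on the higher side. All 12 were measured, 6 reached 2-fold on the higher side and 0 on the lower, and the median log2 difference was 0.95. The largest was Nf1, which encodes neurofibromin, the partner of Spred proteins, at 165 in T+E2 cells and 57.5 in untreated cells (1.52 on the log2 scale). Only 1 of the 3 Nf1 probe sets was measured, and its untreated value was close to the floor. Errfi1, an inducible inhibitor of the EGF receptor, had 2399 in T+E2 cells and 893 in untreated cells (1.43). The receptor-binding inhibitor gene Lrig1 (1.18), the ubiquitin ligase gene Cbl (1.18) and the Ras GTPase-activating gene Rasa3 (1.04) followed on the log2 scale. Lrig1 probe sets ranged from 0.05 to 1.18. With the span trend removed, Errfi1 (1.46) was the only one of the 12 above 2-fold, and Nf1 stood at 0.95. The count past 2-fold was 5 without probe sets of cross-hybridizing designs. It was 4 with centring on all measured genes, and 4 with the median over probe sets. With the mean of all probe sets it was 2, and the list median was 0.67.

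Transcripts that ERK signalling commonly raises had a smaller median difference. Of 11 measured members, 10 lay above 0, where 55.8% of all measured genes did. Of all measured genes, 4.96% reached 2-fold on the higher side and 4.01% on the lower. Of the 11, 1 reached 2-fold on the higher side and 0 on the lower, and their median log2 difference was 0.52. The higher one was Ier3, an early response gene linked to cell survival, at 2401 in T+E2 cells and 808 in untreated cells (1.57 on the log2 scale). Etv4, Etv5, Phlda1, Ccnd1, Epha2 and Epha4 are named after their values were seen, because they are often scored together with Spry2, Spry4, Dusp4 and Dusp6 as ERK output. Their log2 differences were 0.75 for Phlda1, 0.65 for the ETS factor gene Etv5 and 0.42 for the cyclin gene Ccnd1. A second measured Etv5 probe set, of lower signal, was at 1.04. Of the ephrin receptor genes, Epha4 had a difference of 0.34, or -0.16 without the span trend, and Epha2 one of 0.20, and the ETS factor gene Etv4 was at background on both arrays. The growth regulator gene Myc, also named after its value was seen, was on the other side of 0 (-0.13).

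The kinases and adaptors of the cascade mostly stayed within 2-fold, as did 9346 of all 10267 measured genes. Over all measured genes, 4.96% were at least 2-fold higher, 4.01% at least 2-fold lower, and 4491 lay below 0. Of 13 measured genes of the Ras-ERK cascade, from adaptors to ribosomal S6 kinases, 1 reached 2-fold on the higher side and 0 on the lower, and the median log2 difference was 0.35. The higher one was Ksr1, a scaffold for Raf, MEK and ERK, at 130 in T+E2 cells and 37.9 in untreated cells (1.78 on the log2 scale). Only 1 of its 3 probe sets was measured, and its untreated value was close to the floor. Of 8 measured JNK and p38 kinase genes, 0 were 2-fold different in either direction and 5 lay below 0, with a median of -0.21. The largest differences there were in the p38 family genes Mapk12 (-0.83) and Mapk11 (-0.54). These 2 lists held 21 and 11 genes, and the others were under the floor or are not analysed here. No test compared the lists, and the order of their medians describes these 2 arrays.

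**Figure D3:**
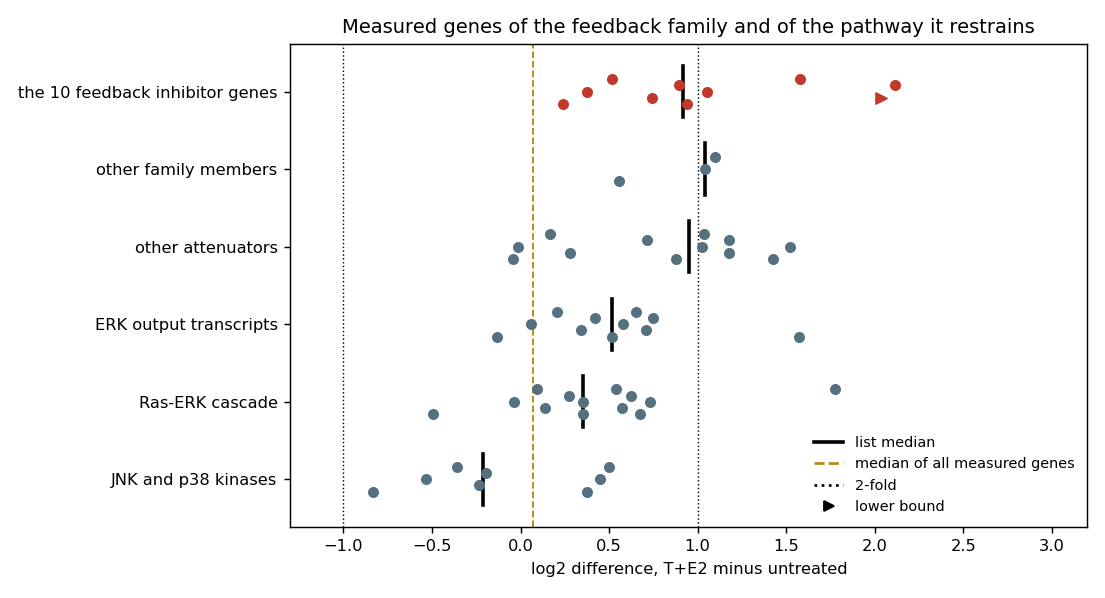
Log2 difference (T+E2 minus untreated, horizontal axis) of the measured genes of each list (rows), with a point per gene, a black bar at the list median, dotted lines at 2-fold and a dashed line at the median of all measured genes (0.07). The 10 feedback genes (red) have a median of 0.92, the other attenuators 0.95 and the JNK and p38 kinases -0.21; the triangle is a lower bound.

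The arrays were alike in overall measures: 42.1% of probe sets reached the floor on the T+E2 array and 42.9% on the untreated array, and the ratio of 3′ to 5′ control signal of Actb was 2.83 in T+E2 cells and 2.96 in untreated cells. The 3 control probe sets for 18S ribosomal RNA were lower on the T+E2 array, by -1.58 to -0.62 on the log2 scale. Mesenchymal markers were abundant, with 9 of 10 measured on both arrays, Vim and Col1a1 among them, and Thy1 at background. Of 10 epithelial markers 2 were measured, Trp63 and Cdh1, and the summed intensity of the list was 578 in T+E2 cells and 332 in untreated cells, while Epcam and the 5 keratin genes were at background. Cdh1 was 4.59-fold higher in T+E2 cells, on 1 probe set whose untreated intensity of 41.4 was close to the floor. Of 6 leukocyte markers only Lyz2 was measured, and it was lower in T+E2 cells (-1.53 on the log2 scale), with a list sum of 396 in T+E2 cells and 1092 in untreated cells and Ptprc at background. Of 6 endothelial markers 1 was measured, Tek (list sums 1062 in T+E2 cells and 926 in untreated cells), with Pecam1 at background. Of 4 neural markers 1 was measured, S100b (list sums 143 in T+E2 cells and 150.3 in untreated cells), with Sox10 at background. The part of other cell types in the differences was not tested.

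**Figure D4:**
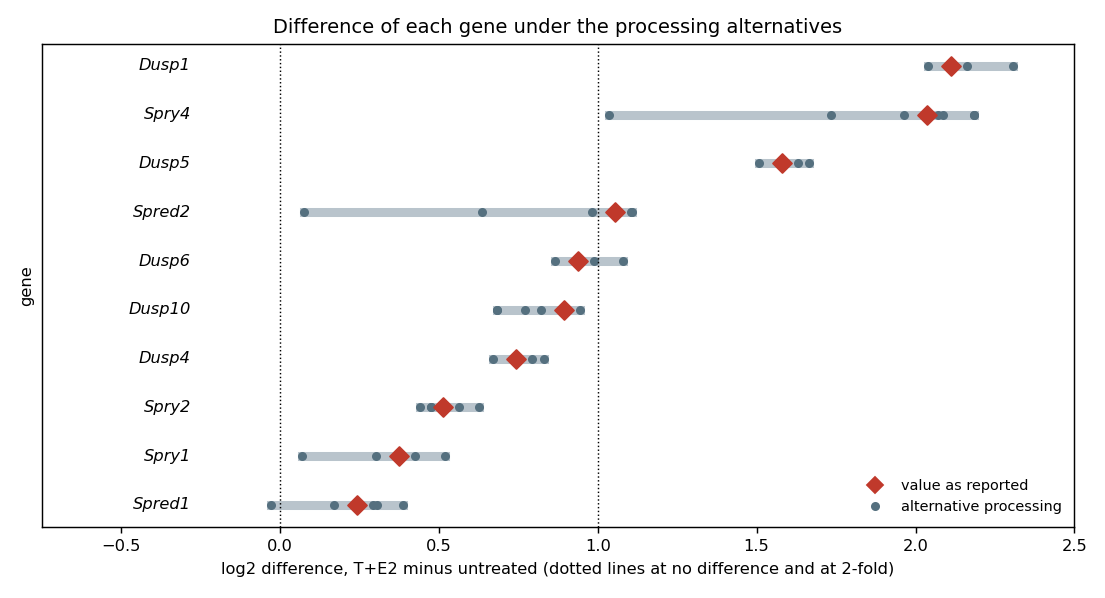
Log2 difference (T+E2 minus untreated, horizontal axis) of each of the 10 genes (rows) as reported (red diamonds) and under alternative floors, centrings, probe set rules and removal of the span trend (grey points, joined by a bar). Dusp1 and Dusp5 stay above 2-fold throughout, Spred2 ranges from 0.08 to 1.11, and Spred1 reaches -0.03.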

How the data were processed

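Expression was measured on Affymetrix mouse arrays. The deposited intensity values are on a linear scale and were made by the authors with GCRMA (background correction by probe sequence, normalization, probe set summary), per the submitters' processing notes, which name no version. Here log2 was taken with no further scaling and no pseudocount, values under a log2 of 5 were set to 5, and a difference with 1 array under that floor is a bound. Probe sets were named from the platform annotation, with symbols updated through the RefSeq gene table (GRCm38.p6), which held all 10 genes; 34945 probe sets name 1 gene, and the 932 that name several were left out. The members and gene lists were chosen with earlier results of these data known. The text names all members and relatives, list genes at least 2-fold different (at most 5 a list, else the 2 largest) and the brightest markers. With 1 array per condition there are no p-values, and precision is limited by that number. Alternatives varied the floor, centring, probe set rule, fold threshold and span trend (running median over 501 genes). Python 3.11.15 and pandas 2.3.3 were used.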

Additional observations from a re-analysis of the deposited data

How the results depend on the processing

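The count of 4 genes at least 2-fold higher held with floors at log2 of 4 and 6 and no floor, centring on the spikes, the median over probe sets, and probe sets without cross-hybridizing designs. It was 3 with centring on all measured genes, without Spred2, and 4 with the span trend removed, where Dusp6 replaced Spred2. With the mean of all probe sets, which draws in those at background, it was 2 (Dusp1 and Dusp5), Spry4 fell under the floor and the median was 0.68. At 1.5-fold it was 7. The count of genes at least 2-fold lower was 0 in all 11 settings. Spry4 ranged from 1.04, against a floor of 6, to 2.19. The 10 pathway genes at least 2-fold higher became 4 with the mean of all probe sets and 4 with the span trend removed. Centring on measured genes put 3.97% of all genes 2-fold higher and 5.06% lower, and removing the span trend 2.83% and 4.39%. Ksr1 was not measured without probe sets of the _s_at design. Among single genes and lists 149 alternatives stayed within the spread of the spikes (SD 0.12, log2) or, for counts, within 1.5 times, and 30 did not. No paired analysis was possible because each condition has 1 array.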

Other observations

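The genes that carry a Dusp symbol but are not among the typical MAPK phosphatases were looked at after the other values had been seen. They are mostly small, atypical phosphatases without the MAPK-binding domain. Of 14 such genes on the array 8 were measured, 0 reached 2-fold on the higher side and 1 did on the lower, and 5 lay below 0, with a median log2 difference of -0.15. Of all 10267 measured genes, 4.96% reached 2-fold on the higher side, 4.01% on the lower, and 4491 lay below 0. With only 8 genes, these counts are not read as a contrast with the MAPK phosphatases. Dusp19 was at 1293 in T+E2 cells and 2915 in untreated cells (-1.17 on the log2 scale), and both of its measured probe sets were lower. Dusp12 had 2314 in T+E2 cells and 4455 in untreated cells (-0.95). Dusp11, which encodes an RNA phosphatase, had 2565 in T+E2 cells and 4603 in untreated cells (-0.84), but its second probe set was on the other side of 0 (0.45). Dusp18 was the highest, at 164 in T+E2 cells and 83.8 in untreated cells (0.96), and its second measured probe set was at -0.03. The values were described without a test, as there is 1 array per condition.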
